A study of Homo sapiens with 62 samples.

Results

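The genes described here are 42 genes that act in the G2 phase of the cell cycle and in mitosis, and they were chosen by name. Each deposited file listed 55040 gene rows, and every chosen symbol matched exactly 1 of them. The libraries were made from GM12878, a human B-lymphoblastoid cell line immortalised with Epstein-Barr virus, in a series that profiled picked cells by SMART-seq, a method that copies polyadenylated RNA into full-length cDNA and amplifies it. Both groups compared here were 10-cell pools of this line that had been divided into 10 parts, each part then carried through as a separate library, and the labels give no treatment, synchronisation or genetic change for either. The titles count the splits of the numbered set from 1 to 10, and those of the unnumbered set give library numbers, 232, 233 and 246 to 253, without a split number. The titles of 9 of the 10 unnumbered libraries, all but 247, also mark them as superseded by a later series, which was not analysed here, and 0 numbered titles do. Whether all splits of a set derive from 1 pool is not stated. The p-values below therefore set a difference against the spread between these splits, which may be technical. Consecutive laboratory experiment numbers group splits 5 to 8, the other numbered splits, splits 232 and 233, and splits 246 to 253. No such run of numbers holds splits of both sets, so a difference between the sets cannot be told apart from one between runs. More cells in a stage of the cycle and more RNA of a gene per cell cannot be told apart in such a pool.

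Mitotic entry is driven by the kinase CDK1 bound to a B-type or A-type cyclin. Aurora and Polo-like kinases then organise the spindle, condensin compacts the chromosomes, and checkpoint proteins at the kinetochores hold back the anaphase-promoting complex until every chromosome is attached. Transcripts of many of these proteins build up late in the cycle, and their promoters often carry a cell cycle homology region (CHR), bound by the DREAM and MMB complexes, together with CCAAT boxes bound by NF-Y. A cycling lymphoblastoid culture is a mixture of stages, and a small pool can hold few or many cells near division.

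All values are FPKM (fragments per kilobase of transcript and per megafragment mapped), and a gene is called detected in a split at an FPKM of 1 or more. Depth, estimated from the authors' confidence bounds on 10 mitochondrial genes, was 11.8 to 20.6 megafragments in the numbered splits. It was 23.3 to 38.7 megafragments in 8 unnumbered splits, 7.79 in split 252 and 0.128 in split 247. Among the B-cell markers, CD74, HLA-DRA and MS4A1 were detected in all 20 splits. Their medians were 5362 and 2403 FPKM for CD74, 4306 and 2455 for HLA-DRA and 692 and 227 for MS4A1, the numbered set first. The T-cell gene CD3D, the myeloid gene CD14, the globin genes HBB, HBA1 and HBA2, the collagen gene COL1A2 and the keratin gene KRT18 were listed at 0 in every split. The summed T-cell list spanned 0 to 53.4 FPKM per numbered split and 0 to 5.61 per unnumbered split, with CD2 detected in 7 splits. The summed myeloid list spanned 1.46 to 53.8 and 0.902 to 1.65 FPKM, with CSF1R detected in 18 splits. The part of these markers in the results below was not tested.

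No split held all of the mitotic genes at a detected level. Every member was detected in at least 1 split, and 5 of the 42 were detected in all 20: CDK1, its small subunits CKS1B and CKS2, the checkpoint protein BUB3 and the spindle protein NUSAP1. A further 14 were detected in 16 to 19 splits, 16 in 11 to 15, 5 in 6 to 10, and 2 in 5 or fewer. Those last 2 were INCENP and ANLN. Members detected in a numbered split ranged from 13 to 35 with a median of 27.5. In an unnumbered split they ranged from 30 to 39 with a median of 33. Split 9 held the 13 and split 7 the 35, so the numbered set reached into the range of the unnumbered set, where split 252 had the highest count. Over the whole file, splits 9 and 7 also had the fewest and the most genes detected of the numbered set, 3771 and 7671. The part of that in the member counts was not tested.

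The summed level of the 42 genes separated the sets completely. The sum was 2336 to 3835 FPKM with a median of 3192 in the numbered splits, and 5517 to 10922 FPKM with a median of 6944 in the unnumbered splits. As a share of all FPKM in the library it was 0.193 to 0.245% against 0.446 to 0.879%. The highest numbered share, in split 8, lay below the lowest unnumbered share, in split 246. A complete separation was not particular to these genes. The sum of the 7 B-cell markers also separated the sets, in the other direction. It was 7586 to 12938 FPKM in the numbered splits and 3781 to 6367 FPKM in the unnumbered splits. How often other gene lists separate the sets was not tested. Split 253 had both the largest sum and the fewest genes detected over the whole file, 2942, and the part of that in the sum was not tested.

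**Figure D1:**
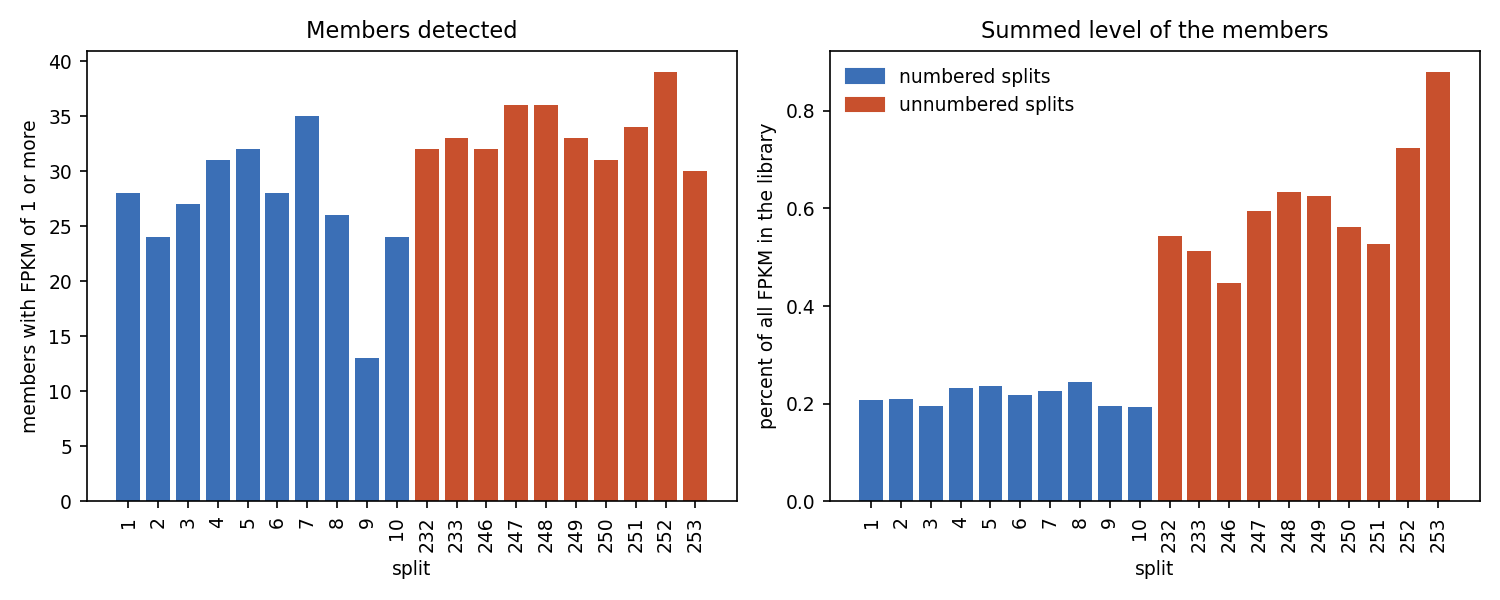
Members detected at an FPKM of 1 or more (left) and the summed FPKM of the 42 members as a percent of all FPKM in the library (right), 1 bar per split. The detected counts of the sets overlap (13 to 35 against 30 to 39), and the summed shares do not (0.193 to 0.245% against 0.446 to 0.879%).

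A few abundant genes made up much of each sum. The 3 highest members held 38.0 to 49.0% of it in the numbered splits and 29.5 to 44.7% in the unnumbered splits. PTTG1, CKS2 and CDK1 were the highest single members among numbered splits, and PTTG1, CKS2, CCNB1 and BUB3 among unnumbered splits. The order of the 42 mean levels was similar in the sets (Spearman's rho 0.80 across the genes, which are not independent replicates), and 8 genes were in the top 10 of both. CCNB1 moved from the eighth place in the numbered set to the second, and AURKA from place 40 to place 18.

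**Figure D2:**
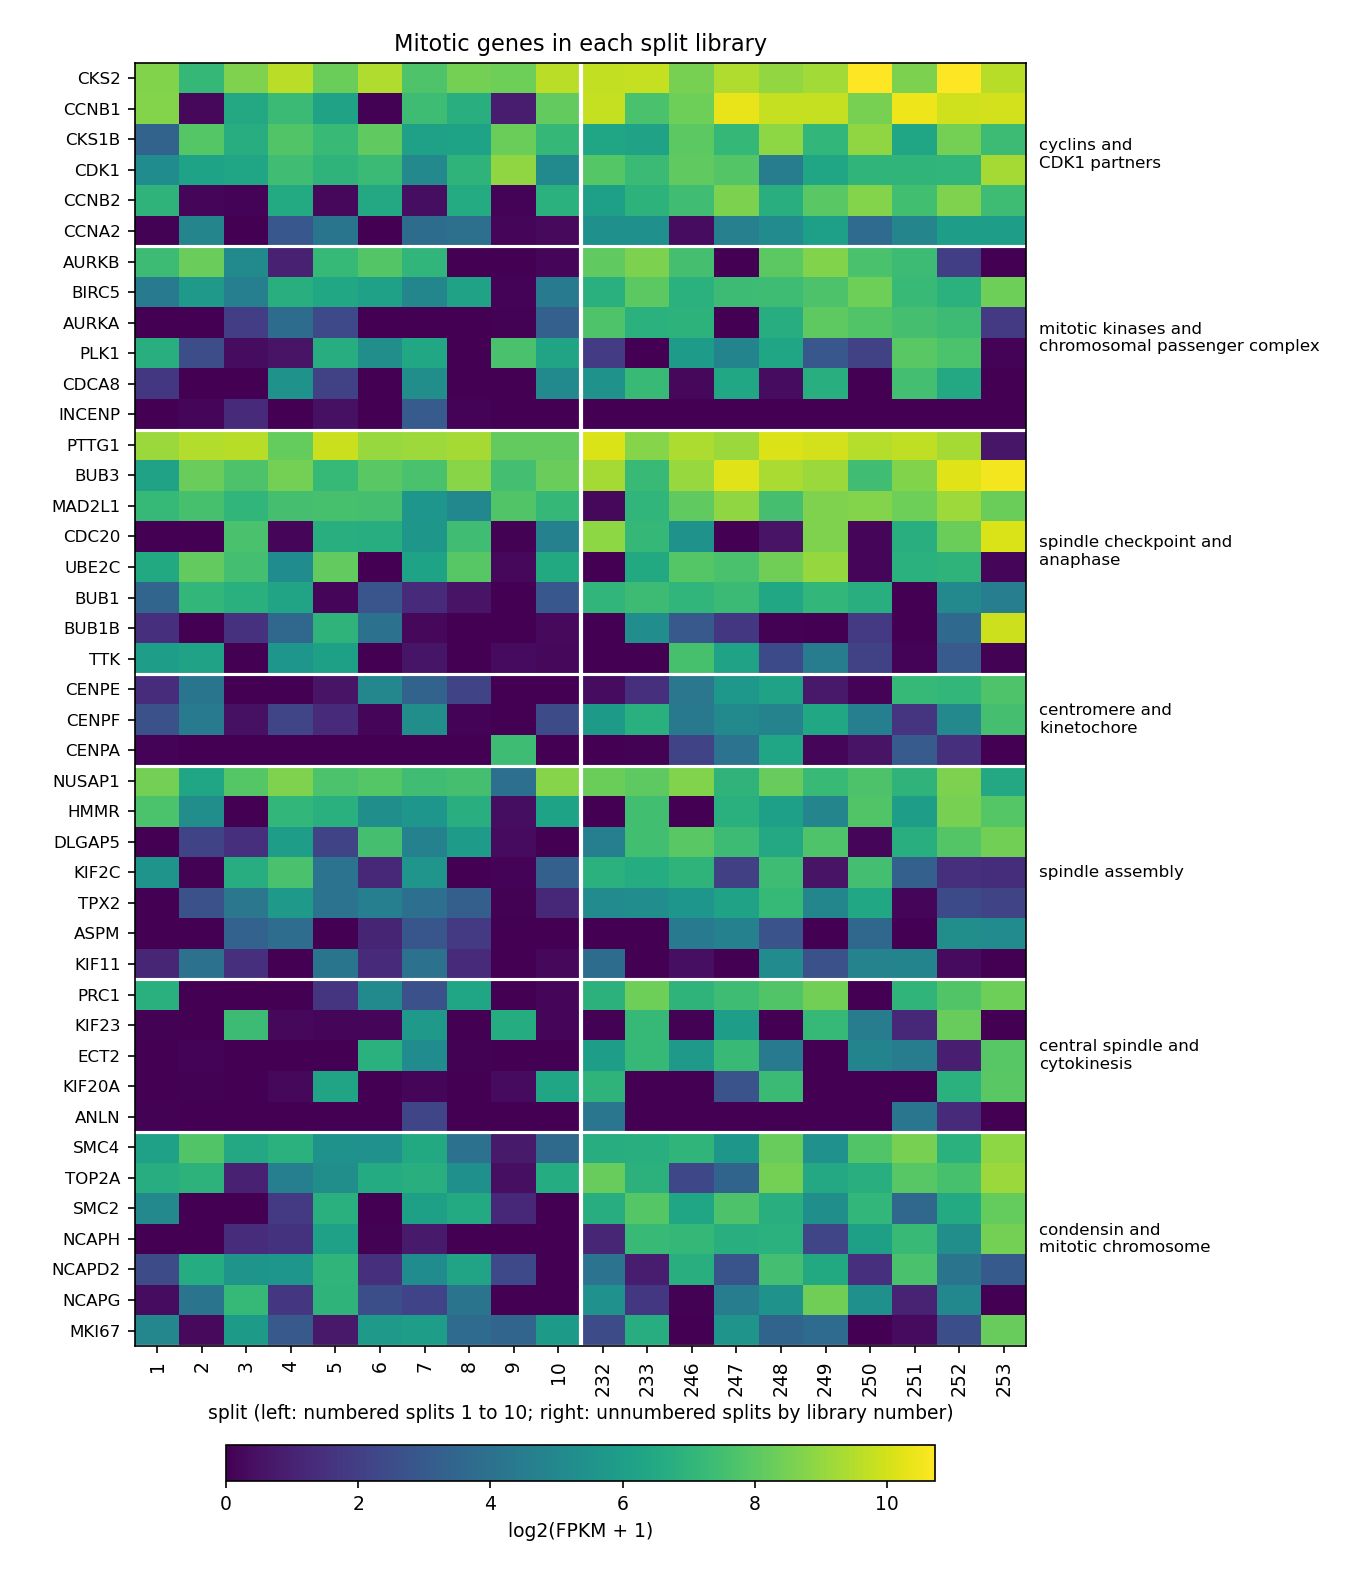
Level of each member, as log2(FPKM + 1), in the 10 numbered splits (left of the white line) and the 10 unnumbered splits (right), grouped by role. NUSAP1 and DLGAP5 are shown as listed, although NUSAP1 has a failed estimate in split 250 and DLGAP5 in split 248. PTTG1 and CKS2 are bright in nearly every column, and NCAPH, AURKA, PRC1 and ECT2 are dark in most numbered splits.

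The main comparison asked whether any member's level differed between the sets by more than the spread between splits. Of the 42 members, 39 were tested. NUSAP1 and DLGAP5 each had a failed estimate in a library, and INCENP had a mean under 1 FPKM. In limma's test on log2(FPKM + 1) with Benjamini-Hochberg adjustment over 10506 genes, 8 members were higher in the unnumbered set and 0 were higher in the numbered set. Of all genes tested, 1.38% were called higher in the unnumbered set and 3.93% higher in the numbered set, 5.31% in either direction. The 8 were the cyclin genes CCNB1 and CCNB2, the kinase gene AURKA, the survivin gene BIRC5, the kinetochore gene CENPF, the midzone gene PRC1, and the condensin genes NCAPH and SMC2. At an unadjusted p under 0.05, limma gave 15 members higher in the unnumbered set and 0 higher in the numbered set, beside 4.76% of all genes higher in the unnumbered set.

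The differences of the 39 tested members had a median of 1.39 on the log2(FPKM + 1) scale, and the median over all genes tested was -0.35. A positive difference, meaning a higher mean log2 level in the unnumbered set, was found for 35 of the 39, against 40.1% of all genes. On this scale fold changes of low genes are understated. Splits near 0 also weigh heavily in a mean of logs, so a difference can be larger or smaller than the log2 ratio of mean FPKM. The ratio of mean FPKM was 6.39 for CCNB1 (log2 difference 4.25), 4.43 for CCNB2 (4.16) and 48.4 for AURKA (4.93). Over all genes, 145 calls were higher and 413 lower in the unnumbered set, and rescaling each library moved this balance. The share of calls that were higher there was 25.99%, against 37.7% with median-of-ratios size factors and 39.4% with TPM. The median over all genes was -0.22 with TPM, and the same 35 members had a positive difference under both scalings. Without splits 9, 247 and 253, the number of members called was 3 (AURKA, BIRC5 and NCAPH), and with a trend on transcript length removed from each library it was 5 (AURKA, CCNB1, CCNB2, NCAPH and PRC1). Of all genes tested, 1.39% were called higher in the unnumbered set without those splits, and 0.689% with the length trend removed.

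**Figure D3:**
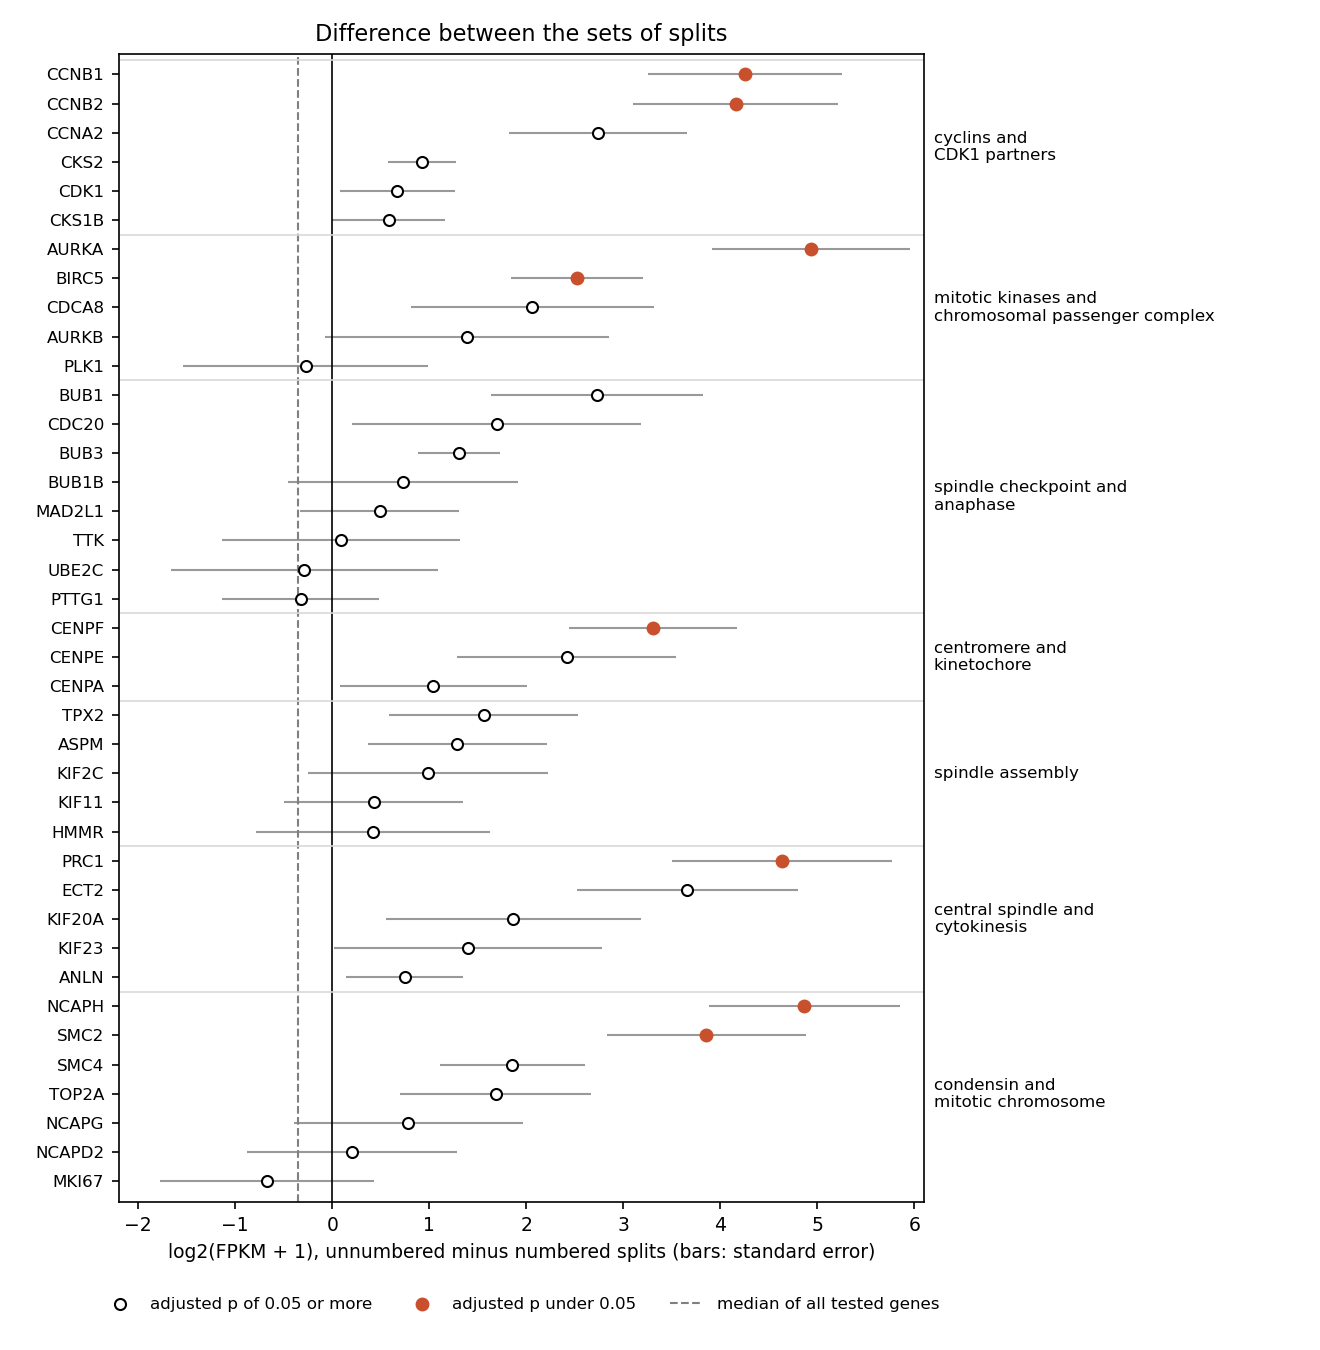
Difference of each tested member between the sets in log2(FPKM + 1), unnumbered minus numbered, with its standard error as a bar, grouped by role. Filled points are the 8 members with an adjusted p under 0.05, and the dashed line is the median of all 10506 genes (-0.35). PLK1, UBE2C, PTTG1 and MKI67 are the 4 members left of 0.

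Promoter sequence is shown for called members because genes of this class share short promoter elements. RefSeq promoter windows (GRCh38.p14) were found for 36 of the 42 members. Each of the following lines gives the 120 bases just before the annotated start, 5′ to 3′ on the strand of the gene, with CHR letters (TTTGAA or TTTAAA) and CCAAT boxes in capitals. Both strands were searched, so ATTGG in capitals is a CCAAT box on the other strand. CCNB1 is at chr5:69167030-69167149 on the plus strand, CCNB2 at chr15:59105026-59105145 on the plus strand, PRC1 at chr15:90994536-90994655 on the minus strand, CENPF at chr1:214603075-214603194 on the plus strand and NCAPH at chr2:96335646-96335765 on the plus strand.
CCNB1: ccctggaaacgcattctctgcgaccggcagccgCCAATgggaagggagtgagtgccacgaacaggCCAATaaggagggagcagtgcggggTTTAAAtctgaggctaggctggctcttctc
CCNB2: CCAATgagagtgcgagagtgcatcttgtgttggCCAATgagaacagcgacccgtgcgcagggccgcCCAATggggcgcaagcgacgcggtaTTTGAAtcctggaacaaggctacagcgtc
PRC1: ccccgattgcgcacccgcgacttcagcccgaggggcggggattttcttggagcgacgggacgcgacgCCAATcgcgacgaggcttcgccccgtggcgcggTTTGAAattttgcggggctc
CENPF: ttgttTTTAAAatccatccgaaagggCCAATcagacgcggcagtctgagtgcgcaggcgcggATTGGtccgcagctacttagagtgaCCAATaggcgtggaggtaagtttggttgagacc
NCAPH: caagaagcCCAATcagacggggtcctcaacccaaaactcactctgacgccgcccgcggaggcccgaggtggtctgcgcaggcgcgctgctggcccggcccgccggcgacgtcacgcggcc

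The B-type cyclin windows held CHR letters close to the start, with CCAAT boxes farther away. The CHR letters began 30 bases before the start in CCNB1 and 29 bases before it in CCNB2, with CCAAT boxes beginning 55 and 87 bases before the start in CCNB1 and 54, 87 and 120 bases before it in CCNB2. The window of CCNA2 had a CCAAT box that began 56 bases before the start and no CHR letters in the 250 bases searched. In PRC1 the CHR letters began 20 bases and the CCAAT box 53 bases before the start. Among members that were not called, TTTGAA began 30 bases before the start of CKS1B, 23 before that of CDCA8, 18 before that of CENPA and 35 before that of NCAPG. The CENPF window had TTTAAA farther away, at 115 bases, and NCAPH and both windows of SMC2 had none in the 250 bases.

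Over the 250 bases before the start, 29 of the 36 members (80.6%) held TTTGAA or TTTAAA, and 25.5% of the 27305 genes with a window did. A CCAAT box was in 29 of the 36 members (80.6%) and in 37.0% of all genes. Both elements were in 66.7% of members and 9.29% of all genes. Of the members with a window, 4 of 6 called members held CHR letters, and 25 of 30 other members did. A match is a description of the letters only, and the shares were not tested.

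Cyclins and CDK1 partners were the role group detected most often in both sets, and the B-type cyclins were its called members. In the 60 pairs of a gene and a split in each set, the 6 genes of this group were detected in 78.3% of the numbered pairs and 98.3% of the unnumbered pairs. CCNB1 (chr5:68462837-68474072 in the coordinates of the deposited files, for which a build was not given in the sources used here) encodes cyclin B1, the main mitotic partner of CDK1. It ranged from 0.0465 to 423 FPKM with a median of 95.2 in the numbered splits, and from 200 to 1382 with a median of 885 in the unnumbered splits. Splits 2, 6 and 9 were under 1 FPKM and no unnumbered split was, and 7 of the 10 unnumbered values lay above every numbered value. The mean was 129 ± 136 FPKM (SD, n = 10) in the numbered set and 825 ± 407 (SD, n = 10) in the unnumbered set. The ratio of these means was 6.39. In limma, the difference in mean log2(FPKM + 1) was 4.25 with a standard error of 1.004 and an adjusted p of 0.00903.

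CCNB2 (chr15:59397277-59417244), the gene of cyclin B2, divided the numbered splits themselves. Splits 1, 4, 6, 8 and 10 lay at 87.6 to 123 FPKM and the other 5 lay at 0.0757 to 0.317, for a median of 44.0. The unnumbered splits ranged from 65.8 to 424 with a median of 175. Its log2 difference of 4.16 (standard error 1.06) had an adjusted p of 0.0164. A gap in the laboratory experiment numbers sets splits 5 to 8 apart. The adjusted p was 0.0675 with these splits as a covariate and 0.0402 without them. With no filter on the mean level it was 0.0509. Both B-type cyclins were detected together in 4 numbered splits and in all 10 unnumbered splits, and in 2 numbered splits neither was. The ratio of the means of CCNB1 and CCNB2, which are per length, was 2.51 for the numbered splits and 3.62 for the unnumbered splits.

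CKS2, a small subunit that binds the CDK, was the most abundant member of its group. It ranged from 140 to 781 FPKM with a median of 379 in the numbered splits and from 371 to 1690 with a median of 729 in the unnumbered splits. These ranges overlapped, and the log2 difference of 0.93 (standard error 0.35) had an adjusted p of 0.148. With TPM it was 1.19 with an adjusted p of 0.0320, and CKS2 was called under no other alternative. CDK1 itself, which is present in every dividing cell, ranged from 31.9 to 498 FPKM in the numbered set and from 21.8 to 627 in the unnumbered set, and split 9 held the numbered maximum. CKS1B ranged from 9.80 to 320 and from 72.4 to 498, and its pseudogene row CKS1BP7 reached 56.4 FPKM. CCNA2, the gene of cyclin A2, was lower, with medians of 3.42 and 37.5 and an adjusted p of 0.0880. That p was 0.0241 without split 246, its lowest unnumbered value, and CCNA2 was called under no other alternative. Its locus overlaps EXOSC9 by 578 bases, and the library kit marks no strand.

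Among the mitotic kinases and the chromosomal passenger complex, AURKA and BIRC5 were called and the other 3 tested genes were not. AURKA (chr20:54944445-54967393), the kinase of centrosomes and spindle poles, was detected in 4 numbered and 9 unnumbered splits. It ranged from 0 to 12.9 FPKM with a median of 0.0296 there, and from 0 to 269 with a median of 140 in the unnumbered set. Of the unnumbered splits, 8 lay at 103 FPKM or more, split 253 lay at 2.56 and split 247 was listed at 0. AURKA had the largest log2 difference of the members, 4.93, with a standard error of 1.02 and an adjusted p of 0.00256.

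BIRC5 (chr17:76210277-76221715) encodes survivin, the subunit that brings Aurora B to the centromere. It ranged from 0.0631 to 104 FPKM with a median of 41.8 in the numbered set, and from 111 to 331 with a median of 165 in the unnumbered set. It was the only tested member whose sets did not overlap, as was the case for 2% of all genes tested. Survivin's log2 difference was 2.52 with a standard error of 0.68 and an adjusted p of 0.0245. That p was 0.0677 among protein-coding genes only, 0.0712 with the length trend removed and 0.0563 with a pseudocount of 0.1.

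AURKB, the kinase subunit of the passenger complex, varied widely in both sets. It ranged from 0 to 313 FPKM with a median of 82.7 in the numbered set and from 0 to 411 with a median of 195.5 in the unnumbered set, and its log2 difference of 1.39 (standard error 1.46) had an adjusted p of 0.612. CDCA8, the borealin gene, had medians of 1.19 and 63.7 FPKM. PLK1, the Polo-like kinase, had medians of 56.9 and 16.8 FPKM. INCENP, the scaffold of the complex, was listed at 0 in all 10 unnumbered splits and reached 7.46 FPKM in split 7, its highest value. The other 3 genes of the complex, AURKB, BIRC5 and CDCA8, were detected together in 4 numbered and 5 unnumbered splits.

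Of the 8 spindle checkpoint and anaphase genes, 0 were called in limma. At an unadjusted p under 0.05, BUB1 and BUB3 were higher in the unnumbered set. PTTG1, the gene of securin, which holds separase inactive until anaphase, ranged from 279 to 938 FPKM with a median of 554 in the numbered set. There were 9 unnumbered splits at 433 to 1142 FPKM, and split 253 lay at 0.570. Securin's log2 difference was -0.33 with a standard error of 0.81 and an adjusted p of 0.849, and without split 253 it was 0.57 with an adjusted p of 0.335.

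BUB3, a checkpoint protein that recruits BUB1 to kinetochores, ranged from 72.2 to 447 FPKM with a median of 232 in the numbered set. It ranged from 153 to 1499 with a median of 581 in the unnumbered set. The log2 difference of 1.31 (standard error 0.42) had an adjusted p of 0.0777. It was 0.0435 with size factors, 0.0229 with TPM, 0.0443 among genes with a mean of 10 FPKM or more, 0.0255 without split 233 and 0.0327 without split 250. BUB3 was not called under the other alternatives. MAD2L1, the checkpoint gene that binds CDC20, was detected in 19 splits, and the exception was split 232 at 0.161 FPKM.

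The remaining checkpoint genes were intermittent. CDC20, the activator of the anaphase-promoting complex, was detected in 6 numbered and 7 unnumbered splits and reached 1100 FPKM in split 253. The kinase-related gene BUB1B also peaked in split 253, at 954 FPKM, and the next highest unnumbered value was 37.3. BUB1 had medians of 6.21 and 119 FPKM, with an adjusted p of 0.184. It was 0.0453 without split 251, its lowest unnumbered value, and BUB1 was called under no other alternative. UBE2C, the ubiquitin-conjugating enzyme of the anaphase-promoting complex, had medians of 90.1 and 118 FPKM, and the kinase gene TTK had 0.387 and 3.72. BUB1, BUB1B, BUB3, MAD2L1 and TTK were detected together in 2 numbered and 4 unnumbered splits.

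The centromere and kinetochore genes were the lowest group in the numbered set, with a summed median of 5.72 FPKM there and 106 in the unnumbered set. CENPF (chr1:214776538-214837931), a large protein of the outer kinetochore, ranged from 0.00503 to 38.4 FPKM with a median of 2.56 in the numbered set. It ranged from 2.13 to 187.4 with a median of 32.5 in the unnumbered set, and 5 numbered splits lay below the lowest unnumbered value. The log2 difference was 3.31 with a standard error of 0.86 and an adjusted p of 0.0206. Without splits 5 to 8 the log2 difference was 3.18 with an adjusted p of 0.0856. The adjusted p was 0.0912 with those splits as a covariate, 0.0755 with the length trend removed and 0.0672 among protein-coding genes only.

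CENPE, the kinetochore motor, ranged from 0 to 29.9 FPKM with a median of 1.03 in the numbered set and from 0.0733 to 219 with a median of 34.6 in the unnumbered set. Its log2 difference of 2.42 (standard error 1.13) had an adjusted p of 0.281. CENPA, the histone variant that marks the centromere, was at 166 FPKM in split 9 and below 0.1 FPKM in the other 9 numbered splits. In the unnumbered set it was detected in 5 splits and reached 81.1 FPKM. CENPA, CENPE and CENPF were detected together in 0 numbered and 5 unnumbered splits.

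Of the 7 spindle assembly genes, 5 were tested and 0 were called in limma, and 0 of the 5 reached an unadjusted p under 0.05. NUSAP1, a microtubule-bundling protein, ranged from 14.2 to 432 FPKM in the numbered set and from 86.6 to 411 in the unnumbered set, with medians of 219 and 236. HMMR, a spindle-associated hyaluronan receptor, ranged from 0 to 206 FPKM with a median of 61.4 and from 0 to 372 with a median of 87.6. Its log2 difference of 0.42 (standard error 1.21) had an adjusted p of 0.871, and its sign turned when single splits were left out (-0.15 without split 3 and -0.10 without split 9).

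DLGAP5, a kinetochore-fibre protein that was not tested, had listed medians of 3.59 and 169 FPKM. TPX2, the activator of Aurora A, had medians of 11.4 and 36.1 FPKM, and it was detected together with AURKA in 4 numbered and 8 unnumbered splits. The kinesin genes KIF2C and KIF11 had medians of 12.5 and 53.9 and of 1.51 and 2.83. ASPM, a spindle-pole protein, had medians of 0.584 and 8.40.

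The central spindle and cytokinesis genes were detected in 26% of the gene-split pairs of the numbered set and 62% of those of the unnumbered set. PRC1 (chr15:91509270-91538859), which crosslinks the antiparallel microtubules of the midzone, ranged from 0 to 110 FPKM with a median of 1.12 in the numbered set. There were 9 unnumbered splits at 119 to 347 FPKM, and split 250 at 0.0112 gave a median of 195.04. The 9 values lay above every numbered value. The log2 difference was 4.64 with a standard error of 1.14 and an adjusted p of 0.0121. A row overlapping PRC1, AC068831.8, reached 40.6 FPKM.

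KIF23, the motor of the centralspindlin complex, varied widely within both sets. It ranged from 0 to 163 FPKM with a median of 0.110 in the numbered set and from 0.0185 to 299 with a median of 11.6 in the unnumbered set, with a log2 difference of 1.396 (standard error 1.38) and an adjusted p of 0.605. ECT2, the exchange factor that activates RhoA at the division site, was detected in 2 numbered and 8 unnumbered splits. Its log2 difference of 3.66 had an adjusted p of 0.0603, the lowest of those that missed the threshold. It was 0.0231 with splits 5 to 8 as a covariate, 0.0153 without those splits, 0.0348 with a pseudocount of 0.1 and 0.0397 among genes with a mean of 10 FPKM or more. It was 0.0146 to 0.0310 when split 6, 7, 249 or 252 was left out, and ECT2 was not called under the other alternatives. KIF20A had medians of 0.0704 and 2.89 FPKM, and its locus overlaps BRD8 by 268 bases and CDC23 by 66 bases. ANLN, the anillin gene, was detected in 1 numbered and 3 unnumbered splits.

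Condensin I compacts mitotic chromosomes and is built from SMC2, SMC4, NCAPD2, NCAPG and NCAPH. All 5 were detected together in 2 numbered splits, 4 and 5, and in 7 unnumbered splits. NCAPH (chr2:97001525-97039583), the kleisin that closes the ring, had the smallest adjusted p of the members. It ranged from 0 to 69.5 FPKM with a median of 0.0251 in the numbered set and from 1.25 to 353 with a median of 113 in the unnumbered set. The value of 69.5 was split 5, and no other numbered split exceeded 1.93. The log2 difference was 4.87 with a standard error of 0.99 and an adjusted p of 0.00201, and NCAPH remained called under every alternative run.

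SMC2 (chr9:106856541-106903698), an ATPase of the ring, ranged from 0 to 110 FPKM with a median of 1.97 in the numbered set and from 10.9 to 292 with a median of 103 in the unnumbered set. This gave a log2 difference of 3.86 with a standard error of 1.02 and an adjusted p of 0.0226. Its partner SMC4 ranged from 0.722 to 225 FPKM with a median of 57.2 and from 41.5 to 477 with a median of 121, and its log2 difference of 1.86 (standard error 0.75) had an adjusted p of 0.187. SMC2 and SMC4 were detected together in 5 numbered splits and all 10 unnumbered splits. The SMC4 locus overlaps TRIM59 by 2518 bases, and TRIM59 had a median of 211 FPKM in the unnumbered set and 3.29 in the numbered set, so reads of these genes may not be told apart.

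The other genes of the group were not called. NCAPD2 had medians of 41.3 and 16.2 FPKM and overlaps MRPL51 by 486 bases, a mitochondrial ribosomal gene with medians of 440.0 and 1138. NCAPG had medians of 4.20 and 26.7. TOP2A, the topoisomerase that untangles sister chromatids, ranged from 0.367 to 122 FPKM with a median of 68.5 in the numbered set and from 3.94 to 548 with a median of 156 in the unnumbered set. Its log2 difference of 1.68 (standard error 0.98) had an adjusted p of 0.418. MKI67, the gene of the proliferation antigen Ki-67, had medians of 21.1 and 7.39 FPKM and the lowest log2 difference of the members, -0.67.

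**Figure D4:**
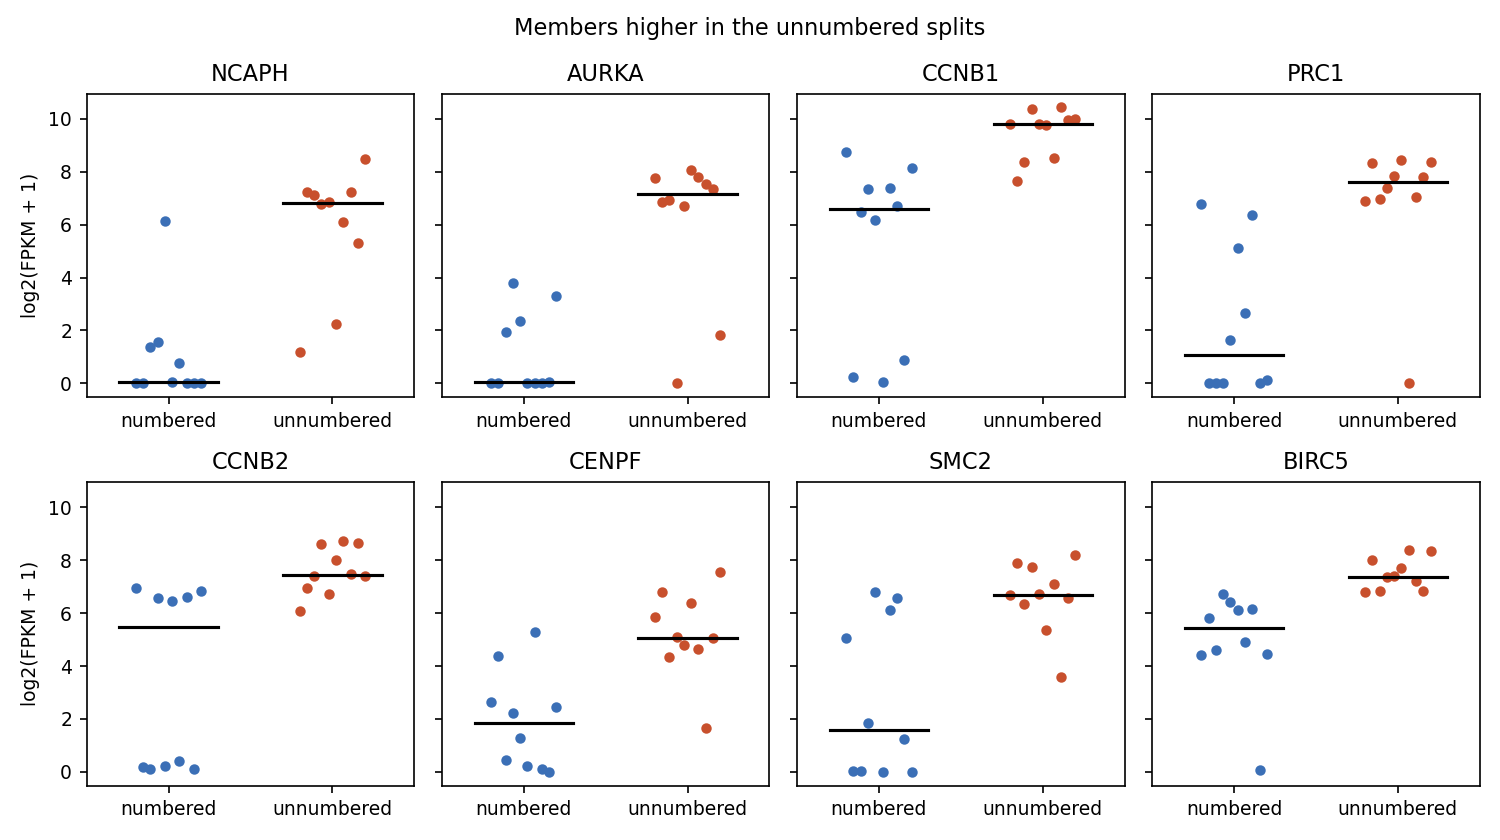
Level of the 8 called members, as log2(FPKM + 1), in each split of the numbered and unnumbered sets, with the median FPKM as a bar. BIRC5 is the only one without overlap. NCAPH, AURKA, PRC1, CCNB2 and SMC2 have several numbered splits at or near 0.

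Detection was compared apart from level. In Fisher's exact test on the number of splits with an FPKM of 1 or more, 0 members passed the threshold after adjustment over 10506 genes, where 0.0666% of all genes did, all of them detected more often in the numbered set. With 10 splits per set and this adjustment, only a nearly all-or-none pattern could pass. Smaller differences in detection could not be called. At an unadjusted p under 0.05, 3 members were detected more often in the unnumbered set, against 0.685% of all genes. They were NCAPH (3 against 10 splits, p = 0.00310), ECT2 (2 against 8, p = 0.0230) and CCNB2 (5 against 10, p = 0.0325), with adjusted p-values of 0.342, 0.728 and 0.749. Of the 42 members, 29 were detected in more unnumbered splits, 6 in more numbered splits and 7 in as many of each. Over all genes the direction was the other way, with a median of 5146 genes detected in a numbered split and 4486.5 in an unnumbered split.

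Splits 5 to 8 were compared with the other 6 numbered splits, since they may be a separate batch. In limma with Benjamini-Hochberg adjustment over 9955 genes, 0 of 38 members passed the threshold, where 0.01% of all genes did. At an unadjusted p under 0.05, 4 of the 38 members and 492 of the 9955 genes were found, and the lowest adjusted p of a member was 0.832. The members were CDC20, ECT2 and SMC2, higher in splits 5 to 8, and BUB1, lower there. The median log2 difference of the members, 0.35 higher in splits 5 to 8, was close to that of all genes, 0.34.

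The spread within a set was set beside that of genes of like level. The coefficient of variation over 10 splits was below the median of its level class for 23 of 38 members in the numbered set and 24 of 39 in the unnumbered set. Among genes at 300 to 1000 FPKM the median coefficient over all genes was 0.41 among numbered splits and 0.50 among unnumbered ones, and at 10 to 30 FPKM it was 1.74 and 2.11. Among members with a mean of 1 FPKM or more in the set, the highest coefficients, 3.16 for CENPA and 2.96 for NCAPH in the numbered set and 2.95 for BUB1B in the unnumbered set, each came with a single high split.

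**Figure D5:**
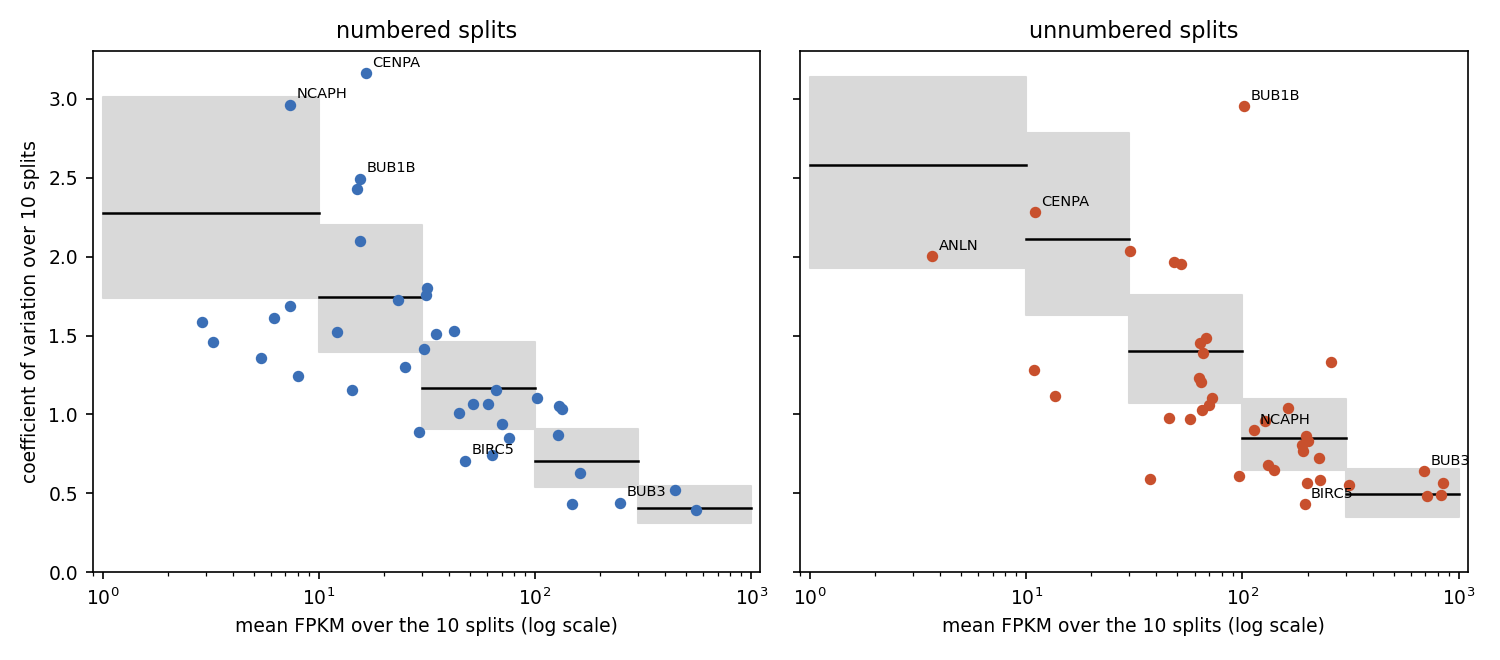
Coefficient of variation of each member over the 10 splits of a set against its mean FPKM (log scale), with the median (line) and the quartiles (grey) of all genes in 5 level classes. Most points lie within or below the grey range, and CENPA in the numbered set and BUB1B in the unnumbered set lie far above it.

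Split 247 had only 0.128 megafragments, so its values rest on few of them. The 1330 FPKM of CCNB1 there corresponded to about 369 fragments, the 109 FPKM of NCAPH to about 41.2 and the 2.29 FPKM of BUB1B to about 1.09. AURKA, AURKB and CDC20 were listed at 0 there, where 1 fragment would have been worth 3.48, 6.24 and 4.41 FPKM, far below their medians in the unnumbered set. Leaving it out kept the number of called members at 8, beside 1.42% of all genes tested called higher in the unnumbered set.

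Other genes of the mitotic machinery and of the earlier cycle were read from lists. Of 116 genes in 6 further lists, 105 were tested, 3 were higher in the unnumbered set and 0 in the numbered set, beside 1.38% and 3.93% of all genes tested. These were KIF14, a kinesin of cytokinesis (log2 difference 3.42, standard error 0.72, adjusted p 0.00295), the outer kinetochore scaffold CASC5 (3.52, standard error 1.02, adjusted p 0.0401) and the transcriptional repressor E2F8 (3.20, standard error 0.96, adjusted p 0.0495). KIF14 ranged from 0 to 2.52 FPKM in the numbered set and from 0.000378 to 43.0 in the unnumbered set, with a median of 18.8.

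By list, the median log2 difference was 0.92 for 23 other kinetochore genes and 1.12 for 17 other spindle and cytokinesis genes. It was -0.26 for 13 other condensin and cohesin genes, -0.24 for 14 genes of the anaphase-promoting complex, 0.20 for 25 mitotic entry and transcription regulators and -0.11 for 13 G1 and G1/S genes, beside -0.35 for all genes. The most abundant gene of each list was not called. ZWINT, a kinetochore gene, had medians of 90.8 and 236 FPKM, CKAP5, a microtubule polymerase, 98.3 and 132, the cohesin gene SMC1A 71.2 and 32.1, and the complex subunit ANAPC11 361 and 216. CDCA3, a mitotic entry factor, had medians of 0.106 and 161 FPKM with an adjusted p of 0.189. CCND2, the gene of cyclin D2, had medians of 93.4 and 158.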

How the data were processed

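Transcript levels were measured in 20 split libraries of GM12878 cells, and the other 42 of the 62 samples were not analysed here. Per the submitters' processing notes, the authors used TopHat 1.4.1 and Cufflinks 2.0.2, which gives FPKM. A genome build was not given in the sources used here. Per the file headers, each deposited file gives FPKM with confidence bounds and a status per gene. Rows with too few data in all libraries (5797) or a failed estimate in any (128) were left out of tests. Depth was computed from the upper bounds of 10 mitochondrial genes.

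Levels were tested with limma 3.58.1 (R 4.3.3, trended prior variance, 2-sided) on log2(FPKM + 1) for genes with a mean FPKM of 1 or more, with Benjamini-Hochberg adjustment over all 10506 and a threshold of 0.05, and the script was tested on simulated data. Detection was compared with Fisher's exact test (2-sided, scipy 1.17.1). Python 3.11.15, numpy 2.4.6, pandas 2.3.3 and matplotlib 3.10.9 were also used. FPKM depends on the other genes of a library. The size factors, taken from the median ratio over genes, address this in part. TPM only sets each library to the same total and still depends on the other genes. FPKM also depends on the transcript length, which only the fit with the length trend removed addresses. Other alternatives changed the pseudocount, filter, prior, gene types, length trend, runs and libraries. Transcript lengths came from GENCODE 29.

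Full values with a test are given for members past a threshold and for the 2 most abundant of each role group. From the other mitotic lists, the called genes and the most abundant gene of each are named. The members, lists and left-out libraries were chosen with earlier results of these data known. A gene of the marker list is not reported here.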

Additional observations from a re-analysis of the deposited data

Results flagged for a closer look

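Single splits that stood far from the other 9 of their set were looked for in 88 groups of 10 values, the level of each member and the number and summed level of members in each set. In 15 groups the gap between the extreme split and its nearest neighbour exceeded 0.466 of the range, which chance does in about 1 in 20 groups of normally distributed values. Gene levels were examined as log2(FPKM + 1) and are printed as FPKM.

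In the numbered set, split 9 held 4 of the 8 such values. It had 13 members detected, and also the fewest genes of the set over the whole file, 3771. It had BIRC5 at 0.0631 FPKM, NUSAP1 at 14.2 FPKM and CENPA at 165.5 FPKM, the last against less than 0.1 FPKM elsewhere in the set. Split 7 was high for INCENP at 7.46 FPKM and for ANLN at 3.67 FPKM, split 5 was high for NCAPH at 69.5 FPKM, and split 1 was low for CKS1B at 9.80 FPKM.

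In the unnumbered set, split 253 was high for BUB1B at 954 FPKM and low for PTTG1 at 0.570 FPKM. Split 250 was low for DLGAP5 at 0.104 FPKM and for PRC1 at 0.0112 FPKM. CCNA2 was low in split 246 at 0.278 FPKM, BUB1 in split 251 at 0.0124 FPKM and MAD2L1 in split 232 at 0.161 FPKM.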

How the results depend on the processing

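No paired analysis was possible because the numbered and unnumbered splits share no replicate numbers. The number of members higher in the numbered set stayed at 0 under every alternative run. The number higher in the unnumbered set, 8, was 8 to 9 when single splits were left out, 3 without splits 9, 247 and 253, 5 with the length trend removed and 6 to 10 under the other alternatives, and the cause was not tested. In the same order, the share of all genes tested called higher in that set was 1.22 to 1.51%, 1.39%, 0.689% and 0.551 to 3.38%. The mean summed FPKM of the numbered set, 3169, was 2158 with TPM, which rescales every library to the same total, and the mean number of members detected in the unnumbered set, 33.6, was 29.7 at an FPKM of 10 or more. The difference of PTTG1 turned from -0.33 to 0.53 without splits 9, 247 and 253 and to 0.57 without split 253. That of HMMR turned from 0.42 to -0.55 without splits 9, 247 and 253, -0.11 without splits 247 and 252, -0.15 without split 3 and -0.10 without split 9. With each split left out in turn they ranged from -0.49 to 0.57 for PTTG1 and from -0.15 to 1.04 for HMMR, and neither passed the threshold in the fits named here. AURKA and NCAPH were called under every alternative. Without splits 9, 247 and 253 the adjusted p was 0.0517 for CCNB1, 0.0720 for CCNB2, 0.0653 for PRC1, 0.0859 for CENPF and 0.110 for SMC2. Without splits 247 and 252 it was 0.0616 for CCNB2 and 0.0646 for SMC2. Depth limits the low values of split 247 most, where a single fragment on a transcript the length of CCNB1 is worth 3.61 FPKM.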

Other observations

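Some genes of the neighbouring lists had medians far apart without passing limma's test, and they were picked after their values were seen. CENPM, a centromere gene, had a median of 184.05 FPKM in the numbered splits and 0.185 in the unnumbered splits, with a log2 difference of -3.32 and an adjusted p of 0.212, opposite in sign to most kinetochore genes tested. CDC23, a subunit of the anaphase-promoting complex whose locus overlaps KIF20A, had medians of 53.9 and 0.0486 FPKM, and BRD8 on the other side of KIF20A had medians of 0.231 and 40.1 FPKM.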
